A study of Mus musculus with 14 samples.

Results

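The genes described here carry out the release of synaptic vesicles and the loading of transmitter into them. They are 38 genes chosen by name for these roles, of the 13866 genes in the count table. Of these, 37 were listed and 35 were tested, after a filter that removes genes with low counts. The glycine transporter gene Slc6a5 was not among the listed genes. Sv2c and Rims1 were listed but did not pass the filter.

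RNA was taken from the brains of mice of 19 days, with 1 library per mouse. WT mice were of the C57BL/6JOlaHsd strain. MyTrMaSt null mice carry deletions of Myd88, Trif (Ticam1), Mavs and Sting (Tmem173), the adaptors through which most sensors of nucleic acids and microbial products signal to interferon. Mice of each genotype were injected daily from day 8 with either PBS or conduritol B epoxide (CBE) at 100 mg/kg. CBE inactivates acid beta-glucosidase, the lysosomal enzyme that is deficient in Gaucher disease, so that injected animals are a chemical model of its neuronopathic form. Each of the 4 groups had 3 libraries, except MyTrMaSt + CBE, which had 5. The others are named WT + PBS, WT + CBE and MyTrMaSt + PBS.

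Transmitter is packed into vesicles by transporters of the vesicle membrane, and the vesicles dock and are primed at the active zone, a protein scaffold below the presynaptic membrane. Fusion is driven by SNARE proteins, which zip the vesicle and plasma membranes together, is clamped and assisted by complexins, and is triggered by synaptotagmins when calcium enters. Most of these proteins are made as pairs of paralogues that differ between brain regions and neuron types, such as the vesicular glutamate transporters encoded by Slc17a7, the main form of cortex, hippocampus and cerebellar granule cells, and Slc17a6, the main form of thalamus, midbrain and brainstem.

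Libraries held 1290616 to 3704691 counts each. The level of a gene is given as CPM, its count relative to the size of its library after scaling by the trimmed mean of M values (TMM). The libraries were made by a bulk form of MARSseq, which reads transcripts near their 3' ends, and levels are compared here between groups and not between genes. P-values measure the spread between these mice. WT + PBS replicate 1 stood apart from all other libraries and held the fewest counts. In it 31.4% of the tested members and 28.2% of all tested genes lay over 2-fold from the mean of replicates 2 and 3. For this reason a second fit leaves that library out, and the log2 fold change of a member is given from it as well where a call changed, or where a WT value changed sign or differed by over 1.5 times. Xist, which is transcribed from the inactive X chromosome of females, had 0 counts in the 3 control libraries of WT mice. More than 1 count was found in 2 of 3 WT + CBE libraries (up to 47), in 3 of 3 of MyTrMaSt + PBS (32 to 46) and in 4 of 5 of MyTrMaSt + CBE (up to 39). Sex was thus not balanced between the WT groups. By Xist, the PBS groups of the genotypes also differed in sex in all their libraries. The labelled tissue was borne out by its markers: the 12 neuron markers summed to 8788 to 11120 CPM in WT + PBS and the 8 oligodendrocyte markers to 17170 to 20770 CPM.

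The members stood over 2-fold lower in WT + PBS replicate 1 than the mean of replicates 2 and 3 for 9 of 37 listed genes, and over 2-fold higher for 3. Slc17a7 stood at 1146 CPM against 242 and 236 CPM, and Vamp2 at 3027 against 1162 and 1071 CPM. Syt1 stood at 95.7 CPM against 582 and 645 CPM, and Napb, which encodes a SNARE recycling protein, at 28.0 against 187 and 127 CPM. High members tended to have GC-rich 3' ends and low members AT-rich ones, as the plot of that library against GC content shows. Across the 35 tested members, replicate 1 was compared with the mean of replicates 2 and 3. The log2 ratio had a Spearman correlation of 0.68 with the GC content of the last 500 bases of the transcript. This correlation is across genes of a single library, which are not independent replicates. Over 11436 tested genes the same correlation was 0.56. In the 11 libraries of the other groups it lay between -0.56 and 0.37 for the members.

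**Figure D1:**
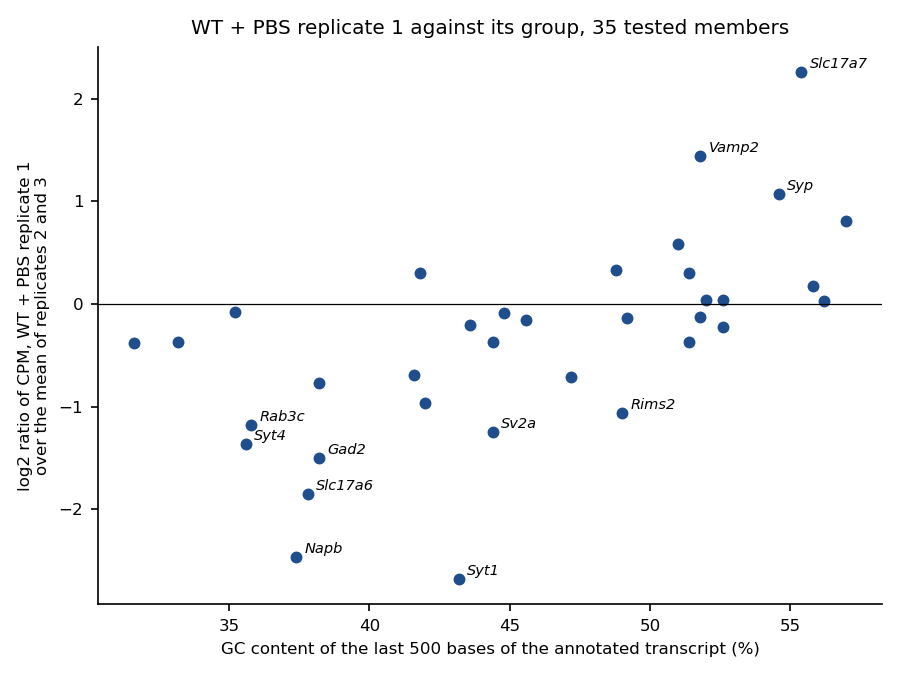
Each point is 1 of the 35 tested members, plotted by the GC content of the last 500 bases of its annotated transcript (x axis, percent) and by the log2 ratio of its CPM in WT + PBS replicate 1 over the mean of replicates 2 and 3 (y axis). Members over 2-fold from that mean are named. Slc17a7 (2.26), Vamp2 (1.44) and Syp (1.07) are the high ones, and Syt1 (-2.68) and Napb (-2.47) are the lowest.

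As a whole, the members took a smaller share of the counts in CBE-injected mice of both genotypes. They made up 1.57% to 1.74% of the counts in WT + PBS and 1.26% to 1.36% in WT + CBE. In the MyTrMaSt groups the share was 1.61% to 1.7% with PBS and 1.4% to 1.5% with CBE. The CBE and PBS groups did not overlap in either genotype. In bulk tissue, fewer neurons, less RNA per neuron and more RNA of other cells cannot be told apart. Markers of other cell types are given further on.

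The comparison of WT + CBE with WT + PBS asks which genes respond to inhibition of the enzyme in mice with intact sensing pathways. Of 35 tested members, 8 were lower at an adjusted p below 0.05 (edgeR quasi-likelihood test, Benjamini-Hochberg over all tested genes), a rule under which 3.89% of all 11852 tested genes were lower. They were Vamp1, Vamp2, Cplx1, Syt7, Syngr3, Unc13a, Pclo and Slc17a7. No member was higher (6.7% of all tested genes were), and 0 were higher at an unadjusted p below 0.05 (12.1% of all genes). DESeq2 called 8 members lower (4.15% of all genes) and 0 higher (6.26%). A difference of at least 2-fold as well was reached by 3 members, Vamp2, Syt7 and Slc17a7, against 6.4% of all genes. It was reached by 1, Syt7, without WT + PBS replicate 1, against 6.58%. The 3 WT + CBE libraries lay wholly below the 3 WT + PBS libraries for 15 members (12.8% of all genes) and wholly above them for none (15.1% of all genes). The median log2 fold change was -0.33 over the members and -0.02 over all tested genes.

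Without WT + PBS replicate 1, 10 members were lower in WT + CBE and none was higher, where 4.05% of 12090 tested genes were lower and 8.58% higher. Of the 8 members above, 7 were among the 10. Slc17a7 was lost, and Syt1, Rab3c and Slc17a6 were added. The groups then failed to overlap downward for 23 members (22.7% of all genes) and upward for 0 (22.6% of all genes), and the median was -0.28 over the members and -0.00 over all genes. With the Xist level as a covariate, only Syt7 passed as lower in the fit of 14 libraries (1.06% of all genes did). The other 7 kept negative log2 fold changes with the covariate, from -0.42 (Unc13a) to -1.53 (Slc17a7), against -0.63 (Syngr3) to -1.60 (Slc17a7) without it. When only the libraries of the WT groups were fitted, 2 members passed as lower (0.461% of all genes). The count of 8 came to 5 without WT + CBE replicate 1 and to 4 without WT + CBE replicate 3.

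The same comparison in MyTrMaSt mice asks what CBE does when the interferon-inducing pathways are missing. Here 7 members were lower and none was higher, against 2.44% and 5.32% of all genes, and DESeq2 also gave 7 lower and 0 higher (2.95% and 5.78% of all genes). They were Snap25, Vamp1, Cplx1, Syt11, Syngr3, Rims2 and Slc17a6 in edgeR. At an unadjusted p below 0.05, 1 member was higher, Sv2b (13.6% of all genes). Of the 7, Vamp1 and Slc17a6 differed at least 2-fold (3.89% of all genes did), as they did without WT + PBS replicate 1 (4.82%). The 5 CBE libraries lay wholly below the 3 PBS libraries for 10 members (10.7% of all genes) and wholly above them for 1, Sv2b (11.8% of all genes). The median log2 fold change was -0.08 over the members and 0.01 over all genes. Over the members it ran from -0.03 without MyTrMaSt + CBE replicate 5 to -0.15 without MyTrMaSt + CBE replicate 4 on leaving out 1 library. In the fit without WT + PBS replicate 1, which takes no library out of either group but lowers the shared estimate of the spread, 9 members were lower (7.87% of all genes) and 2 were higher (10.7% of all genes). The 7 members were all among the 9, with Syt1 and Rab3c added, and the higher ones were Sv2b and Slc17a7. With only the libraries of the MyTrMaSt groups, 9 were lower and 1 was higher, against 6.38% and 8.72% of all genes. The count of 7 came to 2 without MyTrMaSt + PBS replicate 3 and to 4 without MyTrMaSt + PBS replicate 1 or 2 or MyTrMaSt + CBE replicate 5.

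**Figure D2:**
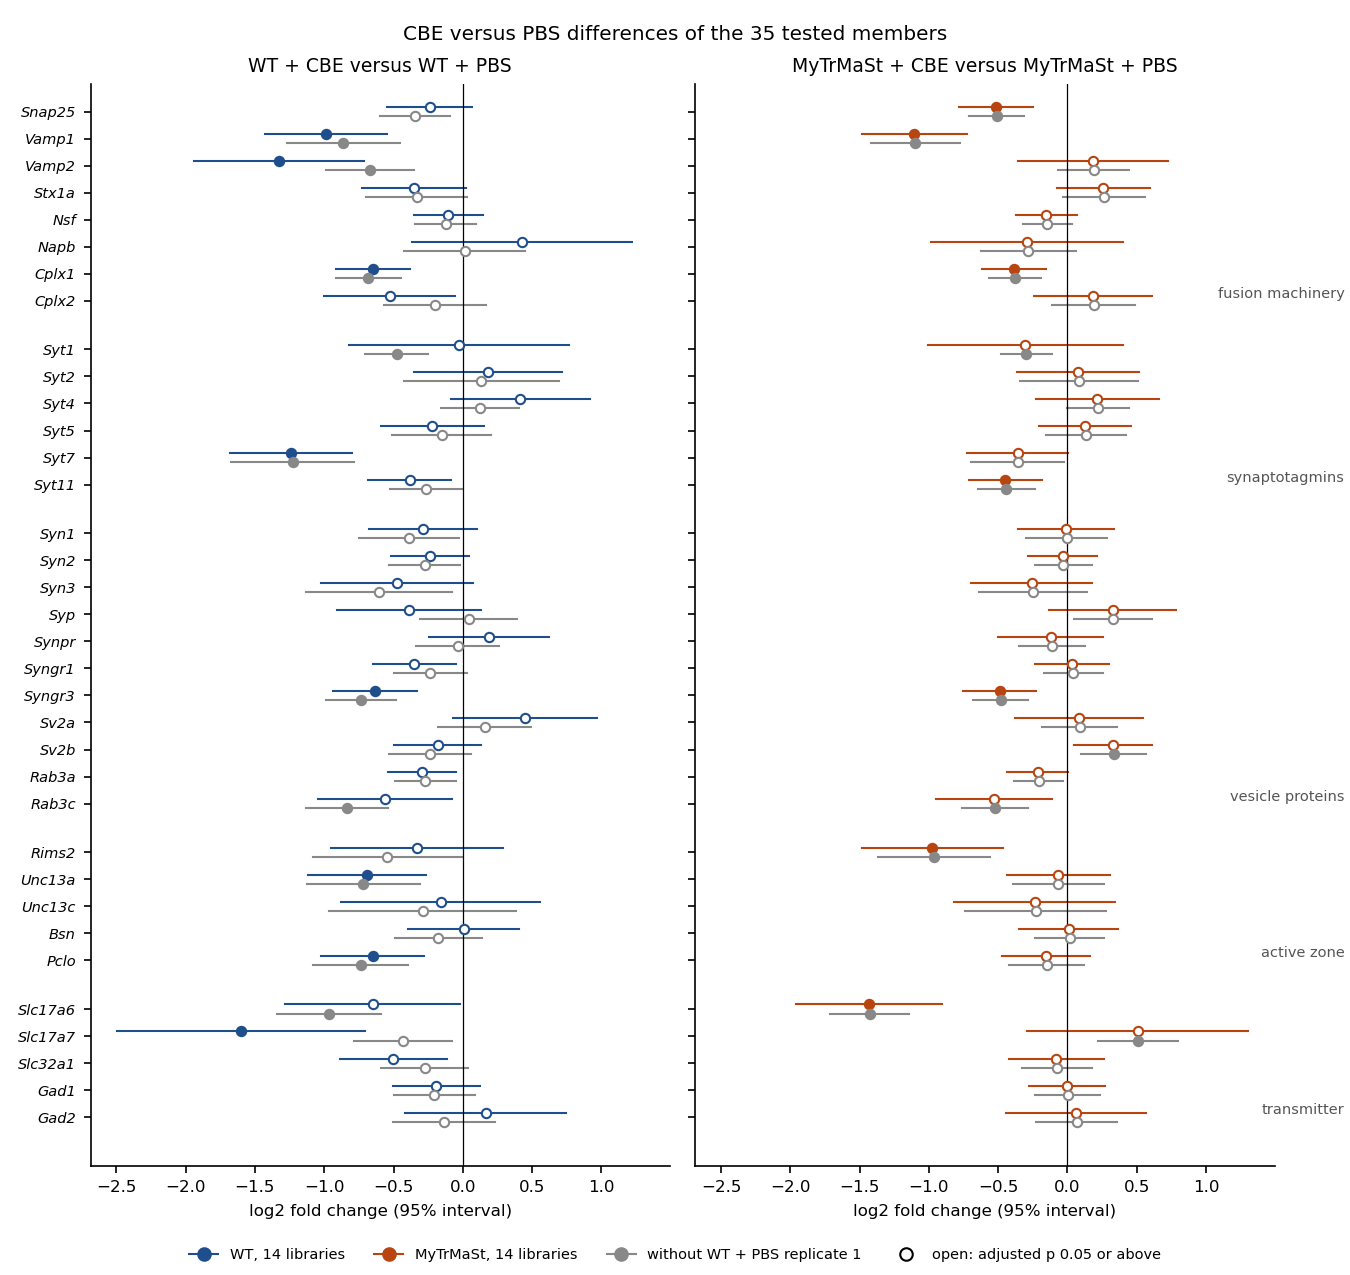
Log2 fold change of CBE over PBS (x axis) with its 95% interval for each of the 35 tested members, ordered by role, in WT mice (left) and MyTrMaSt mice (right). Coloured points come from the fit of 14 libraries and grey points from the fit without WT + PBS replicate 1, and filled points have an adjusted p below 0.05. Filled points lie left of 0 except those of Sv2b and Slc17a7 in the MyTrMaSt panel, and the WT bars of Slc17a7, Vamp2, Syt1 and Napb shorten most when the outlying library is left out.

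Vamp1, Cplx1 and Syngr3 were lower in both genotypes. These 3 were 37.5% of the 8 members lower in WT and 42.9% of the 7 lower in MyTrMaSt. Of all tested genes 0.734% were lower in both, which was 18.9% of those lower in WT and 30.1% of those lower in MyTrMaSt. Without WT + PBS replicate 1, 6 members were lower in both, which was 60% of the 10 in WT and 66.7% of the 9 in MyTrMaSt, where 2.08% of all genes were, or 51.2% and 26.4% of those lower in each. These were the same 3 together with Syt1, Rab3c and Slc17a6. The 2 comparisons share no library, but share 1 estimate of the spread per gene.

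Among the fusion proteins, the vesicle SNAREs Vamp1 and Vamp2 gave the largest differences in WT mice with all 14 libraries. Without replicate 1, Cplx1 (-0.68) and Vamp2 (-0.67) were alike in size. Vamp1 encodes synaptobrevin 1, the form that prevails in spinal cord, brainstem and other hindbrain neurons. It stood at 353, 310 and 251 CPM in WT + PBS and at 161, 162 and 136 CPM in WT + CBE. In MyTrMaSt mice it stood at 315, 300 and 287 CPM with PBS and at 103, 184, 102, 136 and 173 CPM with CBE. Every CBE library was below every PBS library of either genotype. Vamp1 fell by 0.99 (SE 0.21, adjusted p = 0.00451) on the log2 scale in WT and by 1.10 (SE 0.18, adjusted p = 0.000823) in MyTrMaSt. It passed the threshold under 23 of 24 other settings in WT, the exception being the Xist covariate (log2 fold change -0.96, adjusted p = 0.0663), and under 24 of 24 in MyTrMaSt.

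Vamp2 encodes synaptobrevin 2, the main vesicle SNARE of the forebrain, and lies at chr11:69088490-69092384 (mm10, plus strand). Its levels were 3027, 1162 and 1071 CPM in WT + PBS and 542, 848 and 704 CPM in WT + CBE. The MyTrMaSt libraries ran from 820 to 947 CPM with PBS and from 816 to 1145 CPM with CBE. Vamp2 was thus low in each of the WT + CBE libraries but overlapped between the MyTrMaSt groups. It fell by 1.33 (SE 0.29, adjusted p = 0.0058) in WT, a value that came to -0.67 (SE 0.15, adjusted p = 0.00458) without replicate 1. In MyTrMaSt the log2 fold change was 0.18 (95% interval -0.36 to 0.72). Whether the 2 genotypes differed in this response is given further on. The WT call was lost with the Xist covariate (log2 fold change -1.07, adjusted p = 0.125) and when only the compared groups were fitted (0.134).

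Complexin 1, encoded by Cplx1, is the form of inhibitory and hindbrain neurons, and complexin 2, encoded by Cplx2, that of excitatory forebrain neurons. Cplx1 stood at 957, 1110 and 988 CPM in WT + PBS and at 592, 695 and 665 CPM in WT + CBE. With MyTrMaSt the levels were 1124, 964 and 1042 CPM (PBS) and 813, 813, 737, 866 and 767 CPM (CBE). The CBE libraries were below the PBS libraries throughout, and those of WT + CBE were the lowest. Cplx1 fell by 0.65 (SE 0.13, adjusted p = 0.00205) in WT and by 0.38 (SE 0.11, adjusted p = 0.0408) in MyTrMaSt. The MyTrMaSt call was lost on leaving out any 1 of 10 libraries, all those of the WT + CBE and MyTrMaSt + PBS groups and MyTrMaSt + CBE replicates 1, 2, 3 and 5, with an adjusted p of up to 0.169. The log2 fold change of Cplx2 was -0.53 (95% interval up to -0.05, adjusted p = 0.155) in WT, -0.20 (-0.57 to 0.17) without replicate 1, and 0.18 (-0.24 to 0.61) in MyTrMaSt.

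Snap25, the plasma membrane SNARE that pairs with syntaxin 1, stood at 1251, 1636 and 1606 CPM in WT + PBS and at 1177, 1324 and 1306 CPM in WT + CBE. Its MyTrMaSt levels were 1936, 1803 and 2439 CPM with PBS and 1505, 1547, 1284, 1455 and 1392 CPM with CBE. The WT groups overlapped through replicate 1 and the MyTrMaSt groups did not. Snap25 fell by 0.52 (SE 0.13, adjusted p = 0.0162) in MyTrMaSt, and its WT log2 fold change was -0.24 (95% interval -0.54 to 0.06). Without replicate 1 the WT groups were apart, and the value was -0.34 (-0.60 to -0.09, adjusted p = 0.0673). Without MyTrMaSt + PBS replicate 3, the highest library, the adjusted p in MyTrMaSt was 0.158. With an offset for GC content, added once the data had been seen, the values were -0.34 (adjusted p = 0.0755) in MyTrMaSt and -0.43 (adjusted p = 0.0434) in WT, so the call was then in WT and not in MyTrMaSt. The remaining fusion genes, Stx1a (syntaxin 1A), Nsf (the ATPase that takes SNARE complexes apart) and Napb, passed the threshold in no comparison.

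The promoters of Vamp1 and Cplx1, which were lower in both genotypes, are shown as the 250 bases before the RefSeq start (GRCm38.p6), on the gene's own strand, 5′ to 3′. The Vamp1 window is chr6:125215331-125215580 (plus strand) and the Cplx1 window chr5:108550028-108550277 (minus strand). Capitals mark matches to the GC box GGGCGG on either strand.
Vamp1: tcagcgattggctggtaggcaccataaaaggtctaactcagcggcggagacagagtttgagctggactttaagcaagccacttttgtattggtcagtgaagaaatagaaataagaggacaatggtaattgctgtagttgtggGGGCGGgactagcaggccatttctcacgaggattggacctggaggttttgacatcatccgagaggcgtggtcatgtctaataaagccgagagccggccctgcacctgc
Cplx1: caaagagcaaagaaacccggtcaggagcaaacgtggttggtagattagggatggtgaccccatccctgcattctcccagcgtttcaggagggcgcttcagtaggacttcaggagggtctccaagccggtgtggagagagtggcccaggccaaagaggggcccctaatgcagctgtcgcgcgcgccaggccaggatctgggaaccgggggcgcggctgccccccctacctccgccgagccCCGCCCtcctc
Neither window holds a match to the cAMP response element TGACGTCA, the TATA box TATAAA or the left part of the RE1 element, TTCAGCACC, each searched on both strands. Of the 38 members, 30 had an entry in the promoter table. The GC box was found in 21 of these (70%) and in 32.9% of 27025 promoters of the same length, the TATA box in 2 (13% of all promoters), and the cAMP response element and the RE1 part in 1 each, Syn1 in both cases (1.62% and 0.285% of all promoters).

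Synaptotagmins are the calcium sensors of release, and the one that differed most in WT mice was Syt7. Synaptotagmin 7 is a slow, high-affinity sensor linked to asynchronous release and facilitation. Syt7 stood at 56.0, 58.6 and 50.6 CPM in WT + PBS and at 23.0, 19.7 and 27.7 CPM in WT + CBE. In MyTrMaSt the levels were 50.1, 62.6 and 40.9 CPM with PBS and 34.7, 49.6, 39.3, 42.3 and 34.0 CPM with CBE. The WT + CBE libraries were the lowest 3 of all 14, and the MyTrMaSt groups overlapped. Syt7 fell by 1.24 (SE 0.21, adjusted p = 0.000536) in WT, and it passed the threshold under 24 of 24 other settings. The MyTrMaSt log2 fold change was -0.36 (95% interval -0.72 to 0.00, adjusted p = 0.214). These values rest on 42 to 237 counts per library.

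Syt1 encodes the fast sensor of most forebrain synapses and Syt2 its counterpart in hindbrain and spinal cord. Syt1 stood at 95.7, 582 and 645 CPM in WT + PBS and at 468, 436 and 407 CPM in WT + CBE. Its levels were 597, 583 and 637 CPM in MyTrMaSt + PBS and 513, 514, 501, 458 and 468 CPM in MyTrMaSt + CBE. Leaving replicate 1 aside, every CBE library was below every PBS library of its genotype. The WT log2 fold change was -0.03 (95% interval -0.82 to 0.77) with all libraries, and Syt1 fell by 0.48 (SE 0.11, adjusted p = 0.00527) without replicate 1. In MyTrMaSt it was -0.30 (adjusted p = 0.621), and without replicate 1 in the fit it fell by 0.30 (SE 0.09, adjusted p = 0.0234). Syt2 showed 0.18 (95% interval -0.35 to 0.72) in WT and 0.07 (-0.37 to 0.51) in MyTrMaSt, from 9 to 39 counts per library.

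Syt11, whose product does not bind calcium and acts in membrane retrieval, stood at 1407, 1238 and 1041 CPM in WT + PBS and at 938, 932 and 953 CPM in WT + CBE. In MyTrMaSt it stood at 1329, 1175 and 1585 CPM with PBS and at 1054, 1083, 894, 983 and 980 CPM with CBE. The groups did not overlap in either genotype. Syt11 fell by 0.45 (SE 0.12, adjusted p = 0.0351) in MyTrMaSt. That call held under 14 of 24 other settings. It was lost without any 1 of 7 libraries, MyTrMaSt + PBS replicates 1 and 3, MyTrMaSt + CBE replicates 3, 4 and 5, and WT + CBE replicates 2 and 3, with an adjusted p of up to 0.263. It was also lost with the GC offset (-0.41, adjusted p = 0.0642) and the Xist covariate (-0.44, adjusted p = 0.0646). In WT the log2 fold change was -0.38 (adjusted p = 0.0973). Syt4 and Syt5 passed in no comparison.

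**Figure D3:**
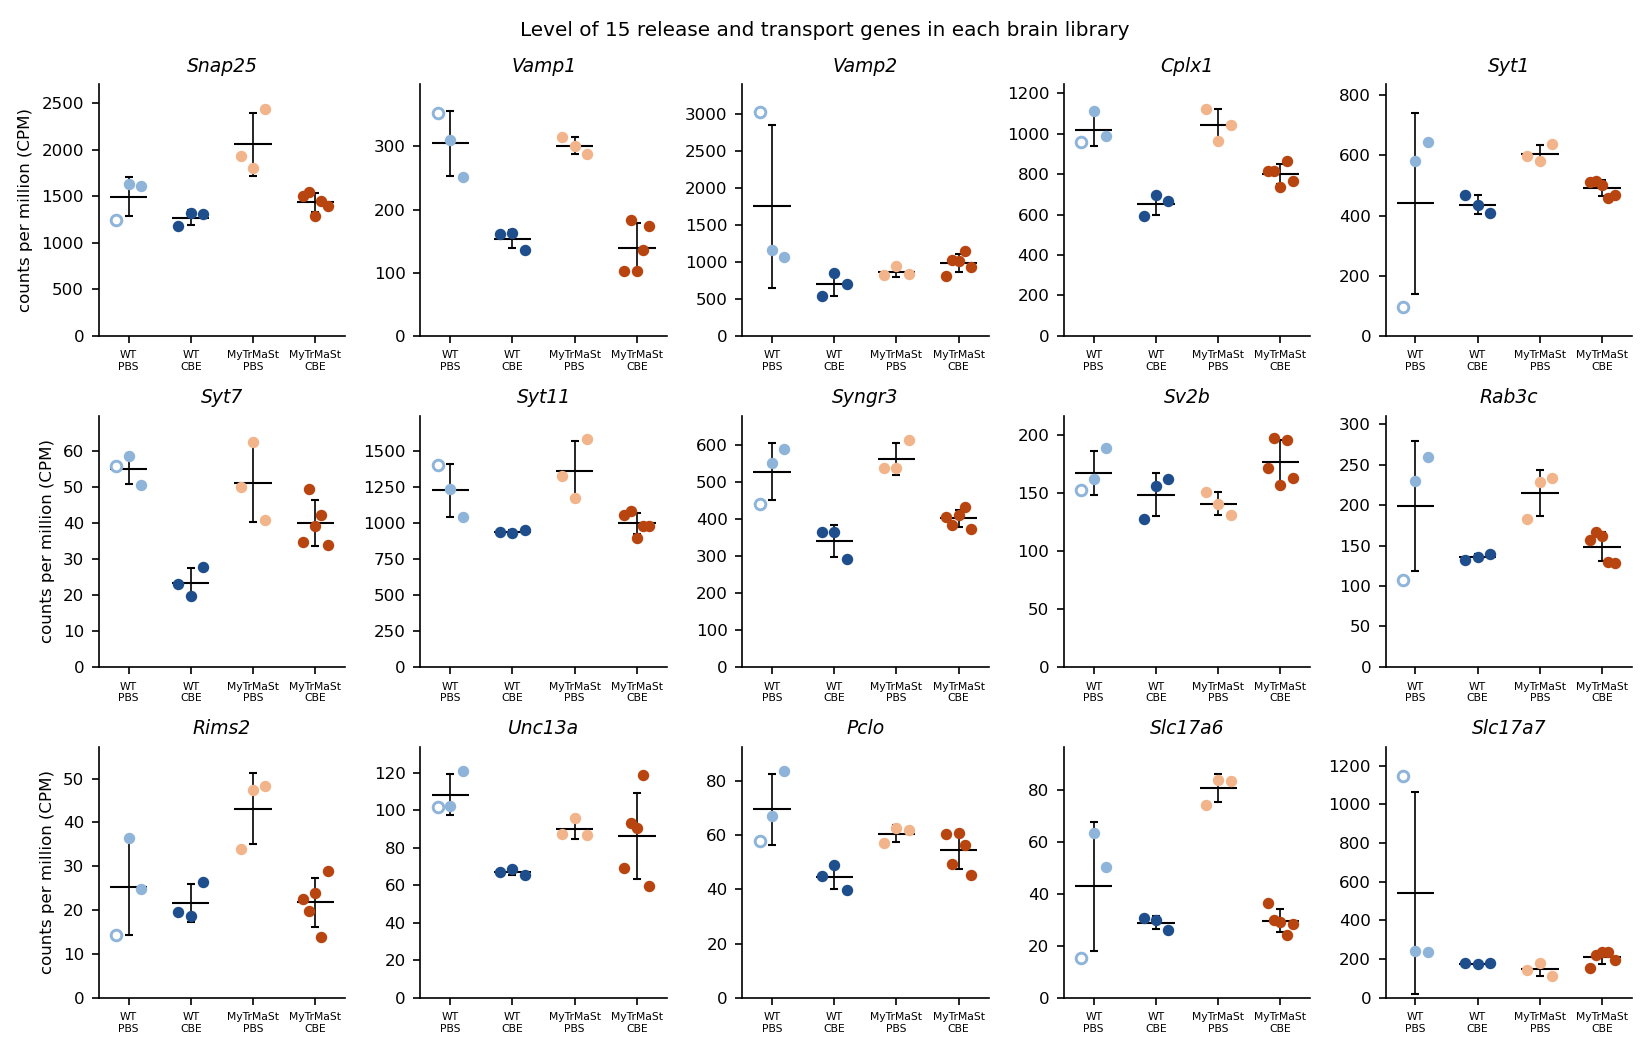
CPM (y axis, from 0) of the 15 members with an adjusted p below 0.05 in at least 1 comparison, in each of the 14 libraries by group (x axis). Points are libraries, the open point is WT + PBS replicate 1, and bars give the mean ± SD of each group. The open point is far above the other WT + PBS libraries for Vamp2 and Slc17a7 and far below them for Syt1 and Slc17a6, while Vamp1, Cplx1 and Syngr3 separate CBE from PBS in both genotypes.

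Among vesicle proteins, Syngr3 was lower in both genotypes. Synaptogyrin 3 is a membrane protein of the vesicle that binds the dopamine transporter. Syngr3 stood at 440, 552 and 588 CPM in WT + PBS and at 363, 365 and 290 CPM in WT + CBE. It stood at 538, 537 and 612 CPM in MyTrMaSt + PBS and at 404, 383, 411, 433 and 372 CPM in MyTrMaSt + CBE. No CBE library reached a PBS library. Syngr3 fell by 0.63 (SE 0.14, adjusted p = 0.00708) in WT and by 0.49 (SE 0.13, adjusted p = 0.0219) in MyTrMaSt. The WT call held under 21 of 24 other settings. Among those that lost it were the fit without WT + CBE replicate 3 (adjusted p = 0.054) and the Xist covariate (0.142). The MyTrMaSt call was lost without any of the 3 MyTrMaSt + PBS libraries or without MyTrMaSt + CBE replicate 2 or 5, with an adjusted p of up to 0.136.

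The small GTPases Rab3a and Rab3c tether vesicles for release. Rab3c stood at 107, 229 and 259 CPM in WT + PBS and at 132, 136 and 140 CPM in WT + CBE. In MyTrMaSt the levels were 183, 229 and 234 CPM with PBS and 157, 167, 162, 130 and 128 CPM with CBE. Only replicate 1 of WT + PBS lay below a CBE library. The WT log2 fold change was -0.56 (95% interval -1.05 to -0.08, adjusted p = 0.134), and without replicate 1 Rab3c fell by 0.83 (SE 0.14, adjusted p = 0.000269). In MyTrMaSt it was -0.53 (-0.95 to -0.11, adjusted p = 0.116), and Rab3c fell by 0.52 (SE 0.11, adjusted p = 0.00287) in the fit without replicate 1. Rab3a, the main brain form, showed -0.29 (95% interval -0.54 to -0.05, adjusted p = 0.125) in WT and -0.21 (-0.43 to 0.00) in MyTrMaSt. Its last 500 bases overlap exons of Mpv17l2 on the opposite strand, and the use of strand in counting is not stated.

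The SV2 proteins are vesicle glycoproteins and the entry receptors of botulinum toxin. Sv2b stood at 152, 162 and 189 CPM in WT + PBS and at 127, 156 and 162 CPM in WT + CBE. Its levels were 151, 141 and 131 CPM in MyTrMaSt + PBS and 171, 198, 157, 196 and 163 CPM in MyTrMaSt + CBE. The WT groups overlapped, and in MyTrMaSt all CBE libraries were above all PBS libraries. The MyTrMaSt log2 fold change was 0.33 (95% interval 0.05 to 0.61, adjusted p = 0.146), and only in the fit without replicate 1 did Sv2b rise past the threshold, by 0.33 (SE 0.11, adjusted p = 0.0467). Sv2a showed 0.45 (-0.07 to 0.97) in WT, 0.16 (-0.18 to 0.49) there without replicate 1, and 0.08 (-0.38 to 0.54) in MyTrMaSt. It stood at 163 CPM in replicate 1, against 367 and 413 CPM in the other WT + PBS libraries. Sv2c, the form of basal ganglia and some brainstem nuclei, had 0 to 6 counts per library and was at 0 in 5 libraries, where a count of 0 allows up to 0.872 to 2.7 CPM.

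The other vesicle genes, among them the synapsins Syn1, Syn2 and Syn3, which tie vesicles to the cytoskeleton, and synaptophysin (Syp), passed in no comparison. Syn1 showed -0.29 (95% interval -0.68 to 0.10) in WT and -0.01 (-0.36 to 0.34) in MyTrMaSt, and Syn2 -0.24 (-0.52 to 0.04) and -0.03 (-0.29 to 0.22). The last 500 bases of Syn1 overlap exons of Araf on the opposite strand. In all, 20 tested members passed the threshold in no comparison and neither fit. Their log2 fold changes with all libraries ran from -0.53 to 0.45 in WT, where 13 of 20 were below 0, and from -0.29 to 0.33 in MyTrMaSt, where 10 of 20 were. Without replicate 1 the WT values ran from -0.60 (Syn3) to 0.16 (Sv2a), with 15 of 20 below 0. Leaving it out moved the WT value from 0.43 to 0.01 for Napb, from 0.42 to 0.12 for Syt4, from -0.39 to 0.04 for Syp, from 0.19 to -0.04 for Synpr (synaptoporin) and from 0.01 to -0.18 for Bsn. With all libraries, their 95% intervals lay within 2-fold in either direction for 17 of 20 in WT, the exceptions being Napb (up to 1.22), Cplx2 and Syn3 (down to -1.02), and for 20 of 20 in MyTrMaSt.

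Of the active zone genes, Pclo and Unc13a passed the threshold in WT and Rims2 in MyTrMaSt, but for none of them did the interaction test show a difference between the genotypes. Pclo and Bsn encode piccolo and bassoon, the giant scaffold proteins, and Unc13a and Unc13c encode the Munc13 priming factors of most synapses and of cerebellar granule cells. Pclo stood at 57.8, 66.9 and 83.5 CPM in WT + PBS and at 44.8, 48.8 and 39.8 CPM in WT + CBE. Its MyTrMaSt levels were 57.0, 62.6 and 62.0 CPM with PBS and 60.4, 49.2, 60.8, 56.1 and 45.4 CPM with CBE. The WT groups did not overlap and the MyTrMaSt groups did. Pclo fell by 0.65 (SE 0.18, adjusted p = 0.0234) in WT and showed -0.16 (95% interval -0.48 to 0.16) in MyTrMaSt. The WT call held under 17 of 24 other settings. Among those that lost it were the fits without WT + CBE replicate 1 (adjusted p = 0.0876) or 3 (0.104) or WT + PBS replicate 3 (0.107). With the Xist covariate the value was -0.56 (adjusted p = 0.2).

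Unc13a stood at 102, 102 and 121 CPM in WT + PBS and at 66.9, 69.0 and 65.7 CPM in WT + CBE. In MyTrMaSt it stood at 87.7, 95.9 and 86.7 CPM with PBS and at 69.4, 93.1, 90.8, 119 and 59.5 CPM with CBE. The 3 WT + CBE values lay close together below the controls, whereas the MyTrMaSt + CBE values spread to both sides of theirs. Unc13a fell by 0.69 (SE 0.20, adjusted p = 0.0362) in WT, and its MyTrMaSt value was -0.07 (95% interval -0.44 to 0.31). The WT call held under 13 of 24 other settings and was lost without any of the WT + CBE libraries, WT + PBS replicate 3, or MyTrMaSt + PBS replicate 1 or 2, with an adjusted p of up to 0.116. Its last 500 bases overlap exons of Colgalt1 on the opposite strand. Unc13c showed -0.16 (-0.88 to 0.56) in WT, -0.29 (-0.96 to 0.38) there without replicate 1, and -0.24 (-0.82 to 0.35) in MyTrMaSt.

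Rims2, which encodes an organiser of calcium channels and docked vesicles, stood at 14.4, 36.5 and 24.9 CPM in WT + PBS and at 19.5, 18.8 and 26.5 CPM in WT + CBE. It stood at 33.8, 47.3 and 48.3 CPM in MyTrMaSt + PBS and at 22.6, 19.9, 23.9, 13.8 and 29.0 CPM in MyTrMaSt + CBE. Here the MyTrMaSt groups were apart and the WT groups overlapped. Rims2 fell by 0.97 (SE 0.24, adjusted p = 0.0175) in MyTrMaSt, and the call was lost without MyTrMaSt + PBS replicate 2 (adjusted p = 0.0872) or 3 (0.107). Its WT value was -0.33 (95% interval -0.95 to 0.29), and -0.54 (-1.08 to -0.01, adjusted p = 0.191) without replicate 1. The difference between the genotypes in this response was -0.64 (SE 0.38, adjusted p = 0.494), and -0.42 (adjusted p = 0.692) without replicate 1, so that Rims2 is not shown to respond differently in them. Rims1 had 2 to 11 counts per library and was not tested.

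Of the transmitter genes, both vesicular glutamate transporters had negative log2 fold changes in WT, and in MyTrMaSt that of Slc17a6 was negative and that of Slc17a7 positive. The 2 genes were not tested against each other. Slc17a6 (VGLUT2) stood at 15.3, 63.3 and 50.2 CPM in WT + PBS and at 30.6, 30.0 and 25.9 CPM in WT + CBE. In MyTrMaSt the levels were 74.2, 83.7 and 83.5 CPM with PBS and 36.6, 30.0, 29.2, 24.1 and 28.6 CPM with CBE. The CBE libraries of both genotypes fell in the same range, below every PBS library but the outlying one. Slc17a6 fell by 1.43 (SE 0.25, adjusted p = 0.00141) in MyTrMaSt, the largest difference of any member there, and passed under 24 of 24 other settings. The WT log2 fold change was -0.65 (95% interval -1.28 to -0.02, adjusted p = 0.191), and without replicate 1 Slc17a6 fell by 0.96 (SE 0.18, adjusted p = 0.000679). The counts behind these values were 17 in replicate 1 and 43 to 317 elsewhere.

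Slc17a7 (VGLUT1) stood at 1146, 242 and 236 CPM in WT + PBS and at 178, 174 and 178 CPM in WT + CBE. Its levels were 144, 182 and 116 CPM in MyTrMaSt + PBS and 157, 223, 237, 236 and 195 CPM in MyTrMaSt + CBE. The WT + CBE libraries were below the WT + PBS libraries, and in MyTrMaSt the ranges overlapped with the CBE libraries mostly above. Slc17a7 fell by 1.60 (SE 0.43, adjusted p = 0.0212) in WT, the largest difference of any member there, but this rested on replicate 1: without it the value was -0.43 (SE 0.17, adjusted p = 0.109). The call was also lost without any 1 of the WT + CBE libraries, with an adjusted p of 0.0725 to 0.0843. In MyTrMaSt the log2 fold change was 0.51 (95% interval -0.29 to 1.31), and Slc17a7 rose by 0.51 (SE 0.14, adjusted p = 0.0149) in the fit without replicate 1.

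The promoter windows of the 2 transporter genes lie on the plus strand at chr7:51621580-51621829 for Slc17a6 (the first of 2 listed starts) and at chr7:45163671-45163920 for Slc17a7 (RefSeq, GRCm38.p6). They are shown because Slc17a6 was lower with CBE in MyTrMaSt mice while Slc17a7 was higher, the latter past the threshold only in fits that left out WT + PBS replicate 1. Capitals again mark the GC box.
Slc17a6: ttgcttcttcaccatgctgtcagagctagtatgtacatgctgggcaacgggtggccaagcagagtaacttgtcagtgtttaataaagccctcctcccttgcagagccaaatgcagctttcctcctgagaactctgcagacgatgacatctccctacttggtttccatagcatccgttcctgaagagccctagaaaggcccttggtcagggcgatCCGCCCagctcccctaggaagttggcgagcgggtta
Slc17a7: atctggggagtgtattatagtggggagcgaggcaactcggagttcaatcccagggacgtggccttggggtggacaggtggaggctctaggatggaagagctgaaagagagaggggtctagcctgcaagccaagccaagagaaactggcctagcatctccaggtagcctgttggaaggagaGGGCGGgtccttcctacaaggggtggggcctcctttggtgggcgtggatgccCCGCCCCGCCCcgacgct
The Slc17a6 window has a GC content of 53.2% and 1 match, and the Slc17a7 window a GC content of 61.2% and 3 matches, of which 2 overlap.

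Inhibitory transmission is represented by Slc32a1, the vesicular transporter of GABA and glycine, and by Gad1 and Gad2, which encode the enzymes that make GABA. None passed the threshold. Slc32a1 showed -0.50 (95% interval -0.89 to -0.11, adjusted p = 0.0953) in WT, -0.28 (-0.59 to 0.04) without replicate 1 and -0.08 (-0.42 to 0.26) in MyTrMaSt. Gad1 gave -0.19 (-0.50 to 0.12) in WT and -0.00 (-0.28 to 0.27) in MyTrMaSt, and Gad2 0.17 (-0.41 to 0.75) and 0.06 (-0.44 to 0.57). Without replicate 1, where Gad2 stood at 45.1 CPM against 123 and 134 CPM, its WT value changed sign to -0.14 (-0.51 to 0.23), and the WT + CBE libraries lay below the remaining controls. In MyTrMaSt + CBE replicate 4 all 3 genes had their highest level of the group, 483, 470 and 218 CPM.

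**Figure D4:**
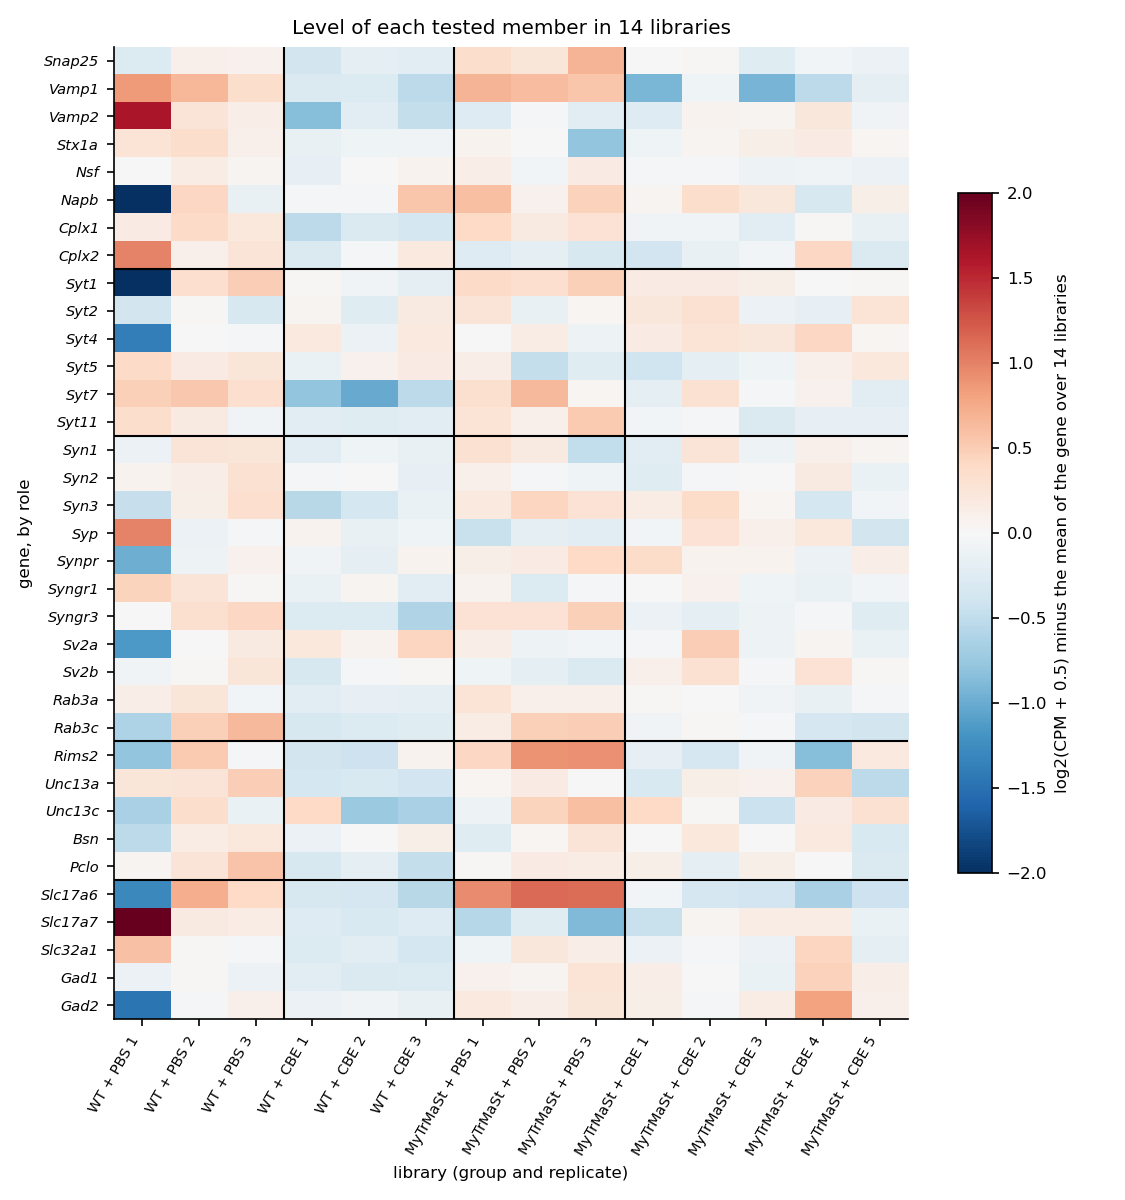
Level of each tested member (rows, by role) in each library (columns, by group), as log2(CPM + 0.5) minus the mean of the gene over the 14 libraries. Red is above and blue below that mean, and colours stop at 2 in either direction, which the first column reaches for Slc17a7, Syt1 and Napb. The WT + PBS replicate 1 column differs from its neighbours, and Vamp1, Cplx1 and Syngr3 are blue in the WT + CBE columns. In the MyTrMaSt + CBE columns they are blue or pale, with Cplx1 and Syngr3 near their means in replicate 4.

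The direct comparison of the genotypes gave few differences. With PBS, no member differed between MyTrMaSt and WT at an adjusted p below 0.05 in edgeR, against 0.186% of all genes. At an unadjusted p below 0.05 there were 11 (16.8% of all genes), and DESeq2 called 2 (2.76% of all genes). The lowest adjusted p was 0.096, of Slc17a7 (log2 fold change -1.86, and -0.71 with an adjusted p of 0.083 without replicate 1). Without replicate 1 again none passed (0.356% of all genes). By Xist, the PBS groups also differed in sex, so that genotype and sex cannot be told apart in this comparison. The count was 4 without WT + PBS replicate 2 and 2 without WT + PBS replicate 3, both of which leave replicate 1 as 1 of 2 libraries.

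With CBE, Syt7 was higher in MyTrMaSt than in WT by 0.78 (SE 0.19, adjusted p = 0.0345), the only member of 35 that passed (2.54% of all genes did). All 5 MyTrMaSt + CBE libraries, from 34.0 to 49.6 CPM, were above the 3 of WT + CBE, from 19.7 to 27.7 CPM. The call was lost without MyTrMaSt + CBE replicate 2, 3 or 4, MyTrMaSt + PBS replicate 1, or WT + CBE replicate 1 or 2, with an adjusted p of up to 0.266. Without WT + PBS replicate 1, Syt7 (0.77, adjusted p = 0.0158) and Vamp2 (0.49, SE 0.13, adjusted p = 0.0275) passed, against 3.52% of all genes.

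The genotype by treatment interaction tests whether the response to CBE differed between the genotypes, as the log2 fold change in MyTrMaSt minus that in WT. No member passed with all 14 libraries (0.489% of all genes did), 9 had an unadjusted p below 0.05 (12.5% of all genes) and DESeq2 called 1 (1.09% of all genes). The count was 2 on leaving out any 1 of the WT + PBS libraries. The interaction draws on the same PBS groups, which differed in sex by Xist. The difference was 0.88 (SE 0.27, adjusted p = 0.217) for Syt7, 0.49 (SE 0.23, adjusted p = 0.396) for Pclo and 0.63 (SE 0.27, adjusted p = 0.368) for Unc13a. Without WT + PBS replicate 1, Vamp2 (0.86, SE 0.20, adjusted p = 0.0397) and Slc17a7 (0.94, SE 0.22, adjusted p = 0.0423) passed, against 0.868% of all genes. For Vamp2 this joins a fall in WT to a value of 0.19 in MyTrMaSt, and for Slc17a7 a value of -0.43 in WT to a rise in MyTrMaSt. With a smooth GC curve per library as an offset, chosen after the data were seen, the differences with all 14 libraries were 1.19 (adjusted p = 0.105) for Vamp2 and 1.56 (adjusted p = 0.119) for Slc17a7, against 1.51 (0.129) and 2.11 (0.149) without the offset.

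A wider list of 68 genes of release, recycling and transmitter handling put these results beside their neighbours in the pathway. Of these, 58 were tested. The medians of the list were -0.21 in WT and -0.13 in MyTrMaSt on the log2 scale, against -0.02 and 0.01 over all tested genes. Genes are named as examples, and calls over the list are not counted here. Genes lower in WT included Slc6a11 (-0.66), the astrocytic GABA transporter, Ppfia3 (-0.76), a liprin of the active zone, Doc2a (-0.91) and Rph3a (-1.39), both calcium-binding vesicle proteins, and Bin1 (-0.66), an amphiphysin. Without replicate 1, Slc6a11 was still lower in WT, while Ppfia3 (-0.47), Doc2a (-0.57), Rph3a (-1.09) and Bin1 (-0.35) did not pass (adjusted p of 0.0679 to 0.149 in edgeR), and Snap91 (-0.52), Cadps (-0.55) and Sh3gl2 (-0.53), of vesicle recycling and priming, were added. Higher were Slc1a3 in WT (0.66), the glial glutamate transporter, and Glul (0.79), the astrocytic glutamine synthetase, and Syngr2 (1.14), the synaptogyrin of non-neuronal cells, in MyTrMaSt. In the fit without replicate 1, Slc1a3 (0.34) was also higher and Cadps (-0.48) and Sh3gl2 (-0.39) were lower in MyTrMaSt.

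Markers of the cell types of the brain moved with treatment beside the members, as the plot of summed levels shows. The 12 neuron markers summed to 8788 to 11120 CPM in WT + PBS and 6164 to 6440 CPM in WT + CBE, and to 8519 to 8885 CPM in MyTrMaSt + PBS and 6569 to 8236 CPM in MyTrMaSt + CBE. Of them 7 were lower in WT (median -0.71) and 2 in MyTrMaSt (median -0.28), with none higher. Without WT + PBS replicate 1, 8 were lower in WT (median -0.60) and 6 in MyTrMaSt (median -0.27). These markers included neurofilament heavy chain (Nefh), which was lower in both genotypes (-1.54 in WT and -1.17 in MyTrMaSt), while Rbfox3, the nuclear marker of mature neurons, showed 0.04 (adjusted p = 0.93) in WT.

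The 8 microglia markers summed to 355 to 514 CPM in WT + PBS and 1785 to 2129 CPM in WT + CBE, and to 327 to 338 and 960 to 1141 CPM in the MyTrMaSt groups. Of them 6 were higher with CBE in each genotype. Astrocyte markers summed to 2945 to 3517 and 4049 to 4443 CPM in WT and to 3437 to 3859 and 4480 to 4853 CPM in MyTrMaSt, with 3 of 8 higher in each and 1, S100b, lower in WT. Oligodendrocyte markers summed to 10440 to 13510 CPM in WT + CBE, with 6 of 8 lower, and to 17040 to 20430 CPM and 12900 to 17170 CPM in MyTrMaSt, with none passing. No endothelial marker passed in either genotype with all libraries. Among markers of brain regions, those of hindbrain and spinal cord summed to 157 to 300 CPM in WT + PBS and 68.0 to 100 CPM in WT + CBE, and to 241 to 285 and 95.6 to 166 CPM in MyTrMaSt. Most of this sum was Nefh, which is also in the neuron list, with 143 to 267 CPM in WT + PBS and 54.4 to 77.4 CPM in WT + CBE. Of these 9 markers 4 were tested, and Nefh was lower in both genotypes and the glycine receptor gene Glra1 in MyTrMaSt. No cerebellar or thalamic and midbrain marker passed in either genotype with all libraries, and 2 forebrain markers were lower in WT and 2 higher in MyTrMaSt. Without WT + PBS replicate 1, 3 markers of oligodendrocytes, 3 of cerebellum, 2 of forebrain, 2 of hindbrain and spinal cord, 1 of thalamus and midbrain and 1 of endothelium were lower in MyTrMaSt, beside the 6 of neurons, and 5 of astrocytes, 6 of microglia and 2 of forebrain were higher. In WT, 7 oligodendrocyte, 2 forebrain and 1 hindbrain and spinal cord markers were then lower, beside the 8 of neurons, and 4 astrocyte and 7 microglia markers were higher. The part of cell numbers and of regional composition in the differences of the members was not tested.

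**Figure D5:**
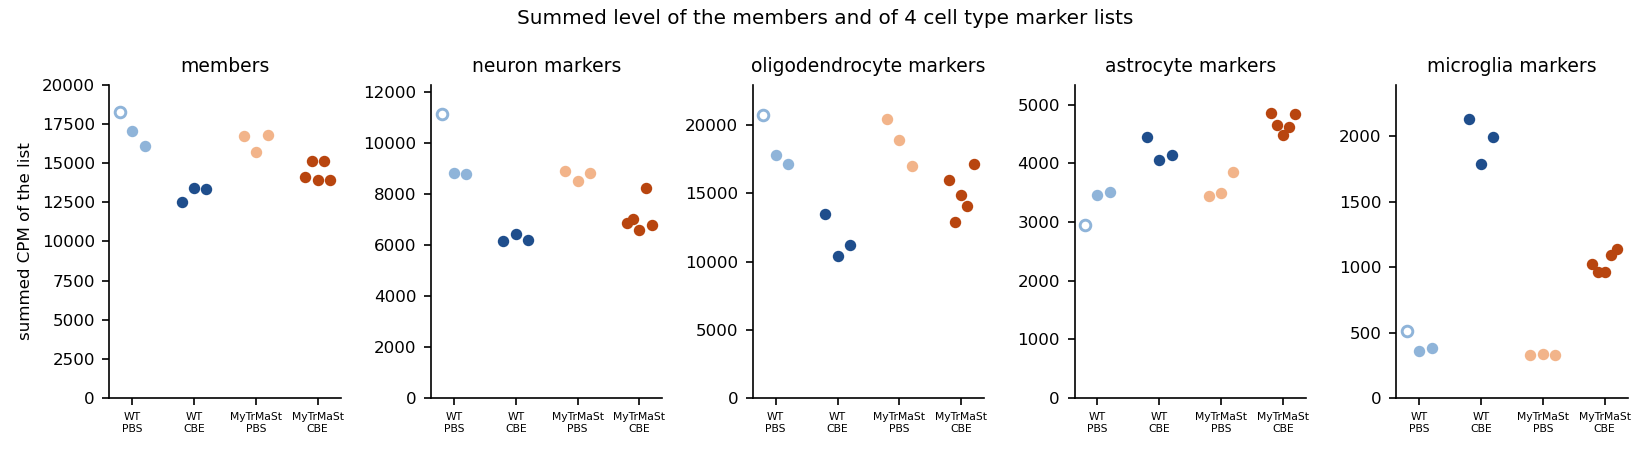
Summed CPM (y axis, from 0) of the 37 listed members and of the marker lists of 4 cell types in each library, by group (x axis). The open point is WT + PBS replicate 1. The members, neuron and oligodendrocyte markers are lower with CBE, with no overlap in WT, and the astrocyte and microglia markers are higher, with the microglia sums of WT + CBE (1785 to 2129) above those of MyTrMaSt + CBE (960 to 1141).

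Over the 35 tested members, the responses to CBE of the 2 genotypes had a Pearson correlation of 0.14 with all libraries and 0.58 without WT + PBS replicate 1. Over all tested genes the values were 0.61 and 0.68. These correlations are across genes, which are not independent replicates, and serve as a description of how the 2 responses resemble each other with and without the outlying library.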

How the data were processed

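Brain RNA of 14 mice in 4 groups was measured by a bulk form of MARSseq with paired-end sequencing. Per the study's methods the authors mapped reads to mm10 with hisat, kept uniquely mapping reads, and deposited raw read counts per gene, which are used here. The processing notes of the submitters also name cutadapt and HTSeq. The annotation, the use of strand and that of molecular identifiers are not given in the sources used here. If identifiers were not collapsed, PCR copies add to the counts. The table of normalized values and the authors' own comparisons (base means, fold changes, p values and calls) were not used.

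Groups were taken from the sample labels. Genes with low counts were removed with filterByExpr, which left 11852 of 13866 genes (12090 without WT + PBS replicate 1). Libraries were scaled with TMM and 1 fit of 4 group means was tested with the quasi-likelihood F test of edgeR 4.0.16 (R 4.3.3), with Benjamini-Hochberg adjustment over all tested genes and a threshold of 0.05. The procedure was tested on simulated data. The 2-fold criterion of the study was counted separately. Alternatives were DESeq2 1.42.0, limma 3.58.1 (voom), other scalings and filters, only the compared groups, a replicate block, an Xist covariate, each library left out and, chosen after seeing the data, a GC offset.

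The members and the lists of markers and of wider pathway genes were chosen with earlier results of these data known. Members with an adjusted p below 0.05 in any comparison, with or without WT + PBS replicate 1, are given in every library. Paralogues are given with their 95% intervals, and other members by counts and ranges. Some results of the wider list are not reported here. Promoters come from RefSeq (GRCm38.p6). Intervals and limits on 0 counts (3 counts) cover the spread in these libraries and counting error only. Total counts ran from 1290616 to 3704691 per library.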

Additional observations from a re-analysis of the deposited data

Results flagged for a closer look

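In MyTrMaSt + CBE replicate 4, Gad2 stood at 218.1 CPM, where the other 4 libraries of the group lay between 123.6 and 139 CPM, and Slc32a1 stood at 483 CPM, where the others lay between 314.7 and 352.3 CPM. Sv2a stood at 513.7 CPM in MyTrMaSt + CBE replicate 2, against 333.9 to 376.6 CPM in the others. In each case the gap to the nearest library exceeded Dixon's 95% critical value for 5 samples. Chance alone gives such a gap in about 1 in 20 groups, and 35 members were examined. Genes of 1 library are not independent draws. MyTrMaSt + CBE replicate 4 also stood apart more widely. In it 5.54% of all tested genes lay over 2-fold from the mean of the others of its group, against 1.45% to 1.98% for those others. It was the only library of its group with 0 Xist counts. None of these 3 genes passed the threshold in a comparison.

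The response to CBE differed between the genotypes for Vamp2 by 0.858 and for Slc17a7 by 0.94 on the log2 scale in the interaction test without WT + PBS replicate 1 (edgeR adjusted p = 0.0397 and 0.0423). With all 14 libraries the differences were 1.51 and 2.11 (adjusted p = 0.129 and 0.149). Both genes had their highest level of all 14 libraries in WT + PBS replicate 1.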

How the results depend on the processing

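Of the members lower in WT + CBE, 8 in the fit of 14 libraries, 2 passed with only the groups compared, 5 with the replicate block, 1 with the Xist covariate and 3 with the 2-fold criterion (1 when WT + PBS replicate 1 was left out as well). Leaving out 1 library gave 4 (without WT + CBE replicate 3) to 10 (without WT + PBS replicate 1). The median of all 35 tested members in WT, -0.33, came to -0.25 with the GC offset, and that in MyTrMaSt, -0.08, lay between -0.15 and -0.03 on leaving out 1 library and reached -0.15 with the Xist covariate. The 7 members of the MyTrMaSt comparison came to 2 with the replicate block, 2 with the 2-fold criterion, and 2 (without MyTrMaSt + PBS replicate 3) to 11 (without WT + PBS replicate 1, 9 lower and 2 higher) on leaving out 1 library. Between the PBS groups the count of 0 came to 2 in DESeq2 and ranged from 0 to 4 with 1 library left out (4 without WT + PBS replicate 2). Between the CBE groups the count of 1 came to 0 when each library had to hold at least 10 counts of a gene, with the replicate block and with the 2-fold criterion, and ranged from 0 to 2. The interaction count of 0 came to 1 in DESeq2 and ranged from 0 to 2. The cause of these shifts was not tested.

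The replicate numbers do not pair the samples: same-numbered libraries had correlations of -0.18 to 0.17 in their deviations from the group means, and in no pair of groups were all above 0.1. No member called in the fit of 14 libraries changed sign under an alternative that was run, while Syt1 in WT, called only without WT + PBS replicate 1, did so under 6. Single members called with 14 libraries kept their side of the threshold in 309 of the tests under alternatives and lost it in 75. With other scalings the median of all genes stayed between -0.02 and 0.01 on the log2 scale. Depth limits Sv2c and Rims1, which were not tested, and Syt2, Syn3, Unc13c, Rims2 and Slc17a6, which rest on few counts in some libraries.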
